A study of Mus musculus with 3 samples.

Results

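Cd200 and 5 further genes of immune checkpoint and costimulatory surface proteins (Cd274, Pdcd1lg2, Cd40, Cd80 and Cd47) were followed across 3 single-cell libraries of lymph node stroma. The 6 genes were taken by their symbols from the 51912 genes of the deposited count tables, and all 6 were present. The cells came from C57BL/6 mice with a transgene that places Cre and the red protein TdTomato under Cxcl13, and they were sorted as Podoplanin+ TdTomato+ cells lacking CD31 and CD45. Every mouse had received antigen in immune complexes (ICs). By their titles, the libraries named 2-IC (2-IC replicate 1 and 2-IC replicate 2) came from mice given ICs 7 days and 24 h before analysis. The 1-IC library came from mice given ICs 24 h before. The short descriptions differ between the 2-IC libraries, with 24 h for replicate 1 and 7 days for replicate 2, so a shared treatment rests on the titles. The methods describe lymph nodes of several mice pooled per condition, so that a library is the unit of replication. They also speak of independent experiments, without a map from each experiment to a library. With 1 library on one side, 2-IC and 1-IC could not be compared by a test, and values are given in the order 2-IC replicate 1, 2-IC replicate 2, 1-IC.

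CD200 is a surface glycoprotein whose receptor, CD200R, restrains myeloid and some lymphoid cells. PD-L1 and PD-L2, encoded by Cd274 and Pdcd1lg2, engage the inhibitory receptor PD-1, which T follicular helper cells carry at high levels. CD80 binds CD28 and CTLA-4 on T cells, CD40 receives the CD40L signal of helper T cells and drives NF-kB in B cells, and CD47 binds SIRPa on phagocytes and limits their uptake of the cell. Follicular dendritic cells (FDCs) are the stromal cells of the B cell follicle that hold antigen through complement receptor CR2, encoded by Cr2, and are in contact with B cells and T follicular helper cells.

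Barcodes were sorted into classes by their unique molecular identifiers (UMIs), each of which stands for a molecule of RNA caught from the cell. Cr2-positive stroma had at least 1 Cr2 UMI and none of 13 genes of blood, endothelial, glial and epithelial cells, Cd79a among them. Other stroma had no Cr2 UMI, none of those 13 genes and at least 0.5% of UMIs from 8 matrix genes. Cd79a barcodes had at least 1 UMI of this B cell receptor component and less matrix RNA than that, and Cd79a barcodes rich in matrix RNA had both. The 4513 barcodes that passed quality limits gave 230 Cr2-positive stroma (145, 35 and 50), 1870 other stroma (1317, 326 and 227), 968 Cd79a barcodes (664, 121 and 183) and 491 rich in matrix RNA (391, 69 and 31), and 954 fell in no class.

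The libraries held 20607903, 12788101 and 3766526 UMIs, and the median depth of a kept barcode was 4953, 14136 and 4973 UMIs, so that 2-IC replicate 2 stood apart in depth. The 2-IC libraries shared 76 barcode sequences, and the shallower copy had a median of 1.90% of the UMIs of the deeper one. Leaving out all shared barcodes changed no call on Cd200, which was 4.93 higher in Cr2-positive than in other stroma on the log2 scale with them and 4.96 without. The summed level of 10 FDC markers was 44344 to 95792 CPM (counts scaled to 1000000 UMIs) in Cr2-positive stroma and 11839 to 19812 CPM in other stroma, where Cr2 is at 0 by the gate. In Cd79a barcodes the FDC markers summed to 7105 to 10374 CPM, and 1 of them, Cxcl13, was found in 499 of 968 barcodes. The part of stromal RNA in the Cd200 level of Cd79a barcodes was not tested. The 14 B cell markers summed to 374 to 906 CPM in Cr2-positive stroma, 663 to 1410 CPM in other stroma and 20863 to 53041 CPM in Cd79a barcodes. Of these markers, the gates set Cd79a and Cd79b to 0 in both stromal classes and require Cd79a in Cd79a barcodes. The sort was against CD45, so the Cd79a barcodes go against the labelled cell type. The 10 macrophage and dendritic cell markers summed to 290 to 514 CPM in Cr2-positive stroma, with Itgax and Flt3 at 0, 105 to 270 CPM in other stroma and 601 to 967 CPM in Cd79a barcodes.

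On GRCm38 (GENCODE vM21), Cd200 occupies chr16:45382135-45409053 on the minus strand, Cd80 chr16:38455561-38496335 and Cd47 chr16:49800533-49915010 on the plus strand. Cd40 lies at chr2:165055627-165072948 on the plus strand. Cd274 (chr19:29367455-29388095) and Pdcd1lg2 (chr19:29410919-29471161) are neighbours on the plus strand, 22.8 kb apart with 0 annotated genes between them. The antisense genes AC119228.1 and A930007I19Rik overlap Cd274 and Pdcd1lg2.

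Promoter sequence is shown for 3 genes. Cd200 and Cd80 were higher in Cr2-positive stroma, and Pdcd1lg2 had no UMI there. The windows are the 250 bases before the RefSeq start (GRCm38.p6), at chr16:45409054-45409303 on the minus strand for Cd200, chr16:38458683-38458932 for Cd80 and chr19:29410669-29410918 for Pdcd1lg2, none of which holds an annotated exon base. The Cd80 window lies inside the longer GENCODE gene, in intronic sequence. Capitals mark matches to the NF-kB motif GGGANNNNCC on either strand.
Cd200: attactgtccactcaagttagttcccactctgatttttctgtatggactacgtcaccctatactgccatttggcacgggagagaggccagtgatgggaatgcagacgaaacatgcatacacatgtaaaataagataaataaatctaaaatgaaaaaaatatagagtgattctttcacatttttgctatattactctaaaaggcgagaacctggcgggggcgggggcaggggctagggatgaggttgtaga
Cd80: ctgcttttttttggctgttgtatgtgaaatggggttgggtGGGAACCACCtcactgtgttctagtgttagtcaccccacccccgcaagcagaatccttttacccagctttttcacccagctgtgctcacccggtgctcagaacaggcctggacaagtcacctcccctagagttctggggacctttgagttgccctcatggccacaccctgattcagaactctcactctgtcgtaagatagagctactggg
Pdcd1lg2: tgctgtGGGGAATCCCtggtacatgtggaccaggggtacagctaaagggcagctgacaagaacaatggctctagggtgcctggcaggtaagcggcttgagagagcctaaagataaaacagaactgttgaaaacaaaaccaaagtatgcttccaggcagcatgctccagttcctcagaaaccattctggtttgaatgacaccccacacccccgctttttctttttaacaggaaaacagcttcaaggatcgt
The Cd80 match lies 210 to 201 bases and the Pdcd1lg2 match 244 to 235 bases before the start. The Cd200 window held no match to this motif, to the interferon-stimulated response element GAAANNGAAA or to the gamma-activated site TTCNNNGAA, and neither did the Cd274 window or the Cd47 windows. Of 32851 promoter windows of this length, 17.6% held the NF-kB letters, 2.98% the response element and 7.02% the gamma-activated site.

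Of the members, Cd200 set Cr2-positive stroma furthest apart from other stroma. It measured 318, 187 and 448 CPM in Cr2-positive stroma (269, 78 and 144 UMIs), 103, 88.8 and 109 CPM in Cd79a barcodes, 32.1, 25.7 and 41.2 CPM in Cd79a barcodes rich in matrix RNA and 13.3, 4.67 and 12.2 CPM in other stroma. The 4 classes held this order in each of the 3 libraries, and no ranges overlapped between classes. In Cr2-positive stroma the 1-IC library was the highest and 2-IC replicate 2 the lowest. Over all libraries the level in Cr2-positive stroma was 31.0 times that in other stroma (95% counting interval 25.7 to 37.7) and 3.08 times that in Cd79a barcodes (2.73 to 3.46). Counting intervals cover counting error only.

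**Figure D1:**
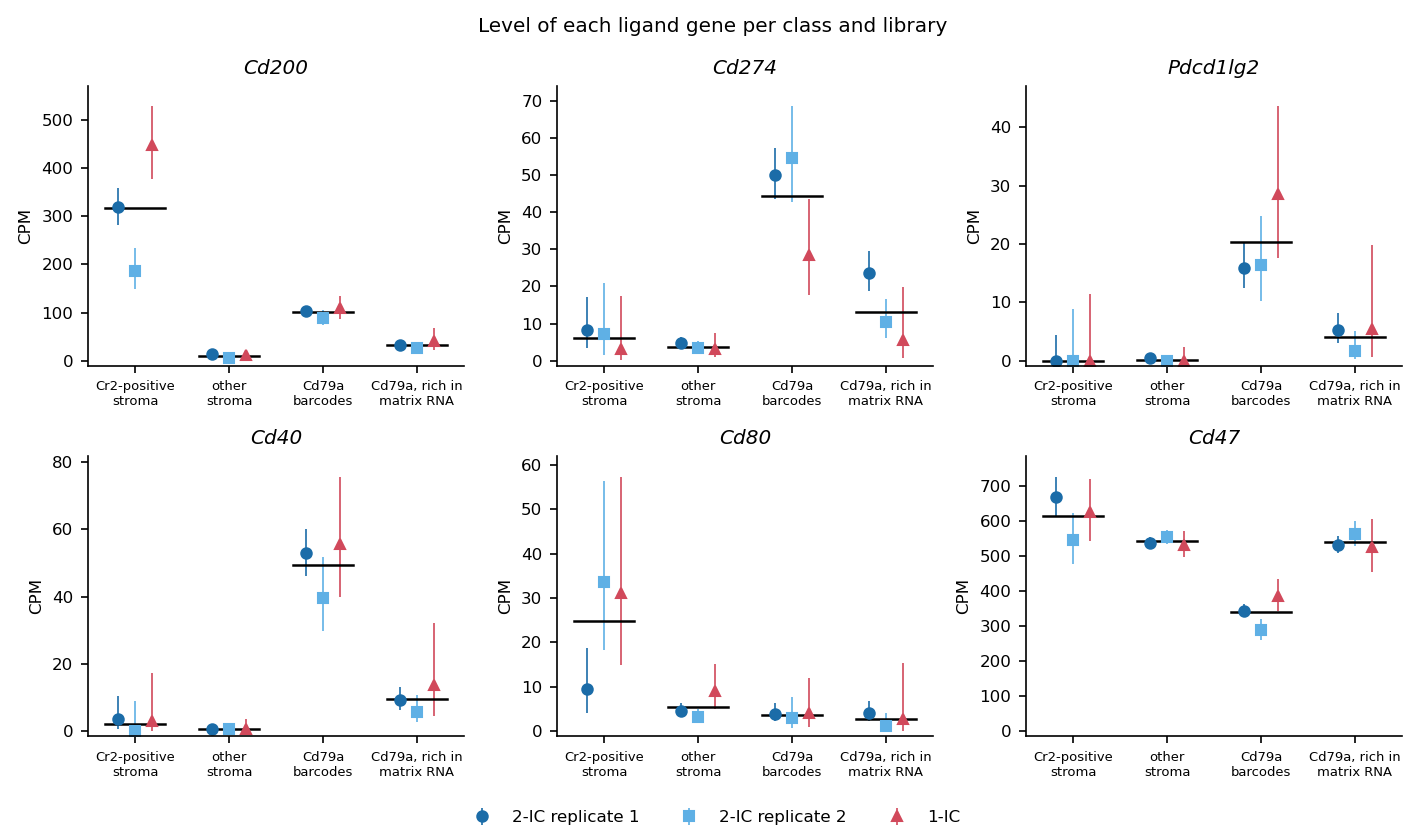
Level of each gene in CPM (vertical axis, linear, its own scale per gene) in 4 classes of barcodes. Points are libraries (circle 2-IC replicate 1, square 2-IC replicate 2, triangle 1-IC) with 95% counting intervals, and black lines are means of the 3 libraries. Cd200 in Cr2-positive stroma lies at 187 to 448 CPM, above every point of the other classes, while Cd274, Pdcd1lg2 and Cd40 are highest in Cd79a barcodes.

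Detection was also compared at equal depth, as the share of barcodes expected to hold at least 1 UMI when each is thinned to 2000 UMIs. For Cd200 it was 35.0%, 29.1% and 49.4% in Cr2-positive stroma (37.8% ± 10.4, SD, n = 3 libraries), 15.4% ± 1.58 in Cd79a barcodes and 1.85% ± 0.821 in other stroma. The share in other stroma is given for comparison, at median depths of 4745, 15549 and 6677 UMIs against 5166, 10091 and 4837 UMIs in Cr2-positive stroma. How much of it is free RNA and how much is expression by these cells was not tested. Without thinning, 51.0%, 51.4% and 60.0% of Cr2-positive barcodes held a Cd200 UMI, and 6.38%, 5.52% and 7.05% of other stroma did. Thinning left out 33 of 230 Cr2-positive and 211 of 1870 other stromal barcodes, which had fewer than 2000 UMIs. With 3 libraries a two-sided exact paired permutation test of such shares cannot go below p = 0.25, and none was made.

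In the fit of counts summed per class and library (edgeR quasi-likelihood test, library as a block, 11107 genes, Benjamini-Hochberg adjusted p under 0.05), Cd200 and Cd80 were higher in Cr2-positive than in other stroma and no member was lower. Against the same contrast, 9.53% of all genes tested were higher and 7.33% lower. The log2 fold change of Cd200 was 4.93 (SE 0.21, adjusted p = 5.05e-12). Its values ranged from 4.78 to 5.30 over 17 alternatives, and its adjusted p was under the threshold in all 17. Myeloid markers also stood higher in Cr2-positive than in other stroma, and with barcodes holding Tyrobp or Lyz2 left out of both classes Cd200 was at 5.05. That step keeps barcodes in which neither gene was caught, and the part of myeloid RNA in the Cd200 difference was not tested. The study had singled out Cd200, with Fcgr2b and Fcer2a, in FDCs of these same libraries, so its difference is not independent evidence.

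Cr2-positive stroma differed from Cd79a barcodes in all 6 members. Cd200, Cd80 and Cd47 were higher and Cd274, Pdcd1lg2 and Cd40 lower in Cr2-positive stroma, where 31.5% of all genes tested were higher and 21.9% lower. The median of all genes in this contrast was 0.14 on the log2 scale with the TMM scaling used and 0.00 with RLE size factors. Cd200 stood at 1.38 (SE 0.18, adjusted p = 2.68e-06), and at 1.25 with RLE. Pdcd1lg2 and Cd40 passed the filter on low counts (6.89 CPM in at least 3 sums) only through Cd79a barcodes and Cd80 only through Cr2-positive stroma, the classes where they were high, so the counts of members called are no independent support.

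**Figure D2:**
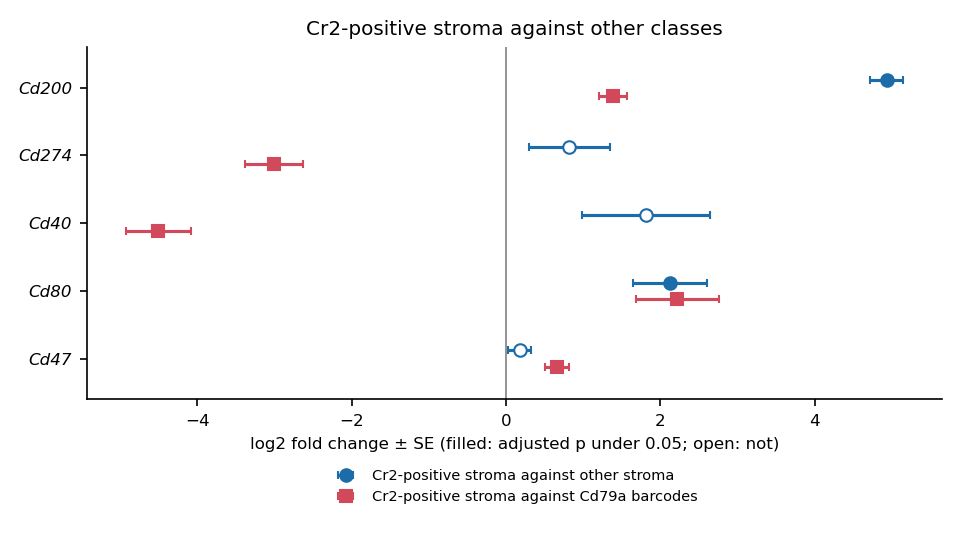
log2 fold changes with SE (horizontal axis) of Cr2-positive stroma against other stroma (circles) and against Cd79a barcodes (squares). Filled symbols passed the adjusted p threshold, and Pdcd1lg2 is not drawn because Cr2-positive stroma held 0 UMIs of it. Cd200 and Cd80 lie to the right of 0 in both contrasts, and Cd274 and Cd40 far to the left against Cd79a barcodes only.

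Cd80, a ligand of CD28 and CTLA-4, was the second member higher in Cr2-positive stroma than in other stroma taken as a whole. Its counts were small, with 8, 14 and 10 UMIs (9.46, 33.6 and 31.1 CPM) against 33, 16 and 14 UMIs in other stroma (4.52, 3.11 and 8.97 CPM) and 17, 4 and 3 UMIs in Cd79a barcodes (3.92, 2.98 and 4.07 CPM). Every library of Cr2-positive stroma lay above every library of both other classes, by the least margin in 2-IC replicate 1. At equal depth Cd80 was found in 1.95%, 7.63% and 6.02% of Cr2-positive barcodes and in 1.05% ± 0.520 of other stroma. The log2 fold change was 2.12 against other stroma (SE 0.48, edgeR adjusted p = 0.00318) and 2.22 against Cd79a barcodes (SE 0.54, adjusted p = 0.00175). Cd80 was among the genes tested only through its level in Cr2-positive stroma. Without 2-IC replicate 2 the first fold change fell to 1.42 (adjusted p = 0.0878), and with shared barcodes left out Cd80 no longer passed the filter on low counts. In all, 14 alternatives gave a test result for Cd80 against other stroma, where 17 did for Cd200.

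The ligands of PD-1 were low in both stromal classes and highest in Cd79a barcodes. Cd274 had 7, 3 and 1 UMIs in Cr2-positive stroma (8.28, 7.20 and 3.11 CPM) and 34, 17 and 5 UMIs in other stroma (4.65, 3.31 and 3.2 CPM), against 217, 73 and 21 UMIs in Cd79a barcodes (50.1, 54.5 and 28.5 CPM). The stromal classes overlapped, and both lay below all Cd79a values. Over all libraries Cr2-positive stroma held 1.74 times the level of other stroma (0.821 to 3.35), and the fit gave 0.82 on the log2 scale (SE 0.52, adjusted p = 0.335). Against Cd79a barcodes Cd274 was lower in Cr2-positive stroma (log2 fold change -3.0, SE 0.38, adjusted p = 1.55e-06).

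Pdcd1lg2 had 0 UMIs among 230 Cr2-positive barcodes, which allows a share of barcodes with a UMI of up to 1.3%, or 1.89 CPM, and sets no limit on cells that express the gene. Other stroma had 3, 0 and 0 UMIs. Cd79a barcodes had 69, 22 and 21 UMIs (15.9, 16.4 and 28.5 CPM), at least 9.22-fold higher than the limit of 3 counts over all Cr2-positive barcodes and 81.6 times other stroma (27.2 to 401). The edgeR adjusted p between Cr2-positive stroma and Cd79a barcodes was 3.41e-05. Pdcd1lg2 entered this test only through its level in Cd79a barcodes, so the p-value is no independent support. At equal depth 5.26% ± 2.09 of Cd79a barcodes held Pdcd1lg2 and 8.16% ± 2.34 held Cd274.

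Cd40, which receives the T cell help signal, had 3, 0 and 1 UMIs in Cr2-positive stroma (3.55, 0 and 3.11 CPM) and 5, 3 and 1 UMIs in other stroma (0.684, 0.584 and 0.641 CPM). Cd79a barcodes had 229, 53 and 41 UMIs (52.8, 39.5 and 55.7 CPM), and at equal depth 10.9% ± 1.55 of them held Cd40 against 0.510% ± 0.508 of Cr2-positive and 0.127% ± 0.00919 of other stroma. The ratio of Cr2-positive to other stroma was 3.93 with a counting interval from 0.884 to 14.1, and the fit gave 1.82 (SE 0.83, edgeR adjusted p = 0.171). This difference passed the threshold with a contaminant filter of 3 genes (2.51, adjusted p = 0.0308) and with classes assigned at 2000 UMIs (2.40, adjusted p = 0.0455). Against Cd79a barcodes Cd40 was lower in Cr2-positive stroma (-4.50, SE 0.42, adjusted p = 3.27e-08). Cd40 was among the genes tested in this fit only through its level in Cd79a barcodes, so this call is no independent support.

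Cd47, which marks cells against uptake, was found throughout. Its level was 668, 547 and 626 CPM in Cr2-positive stroma, 537, 555 and 532 CPM in other stroma and 344, 289 and 387 CPM in Cd79a barcodes. The stromal classes overlapped and did not pass the test (0.18, SE 0.15, edgeR adjusted p = 0.495), while both lay above every Cd79a value. At equal depth 71.1%, 58.3% and 66.6% of Cr2-positive barcodes held Cd47, as did 63.7% ± 0.801 of other stroma and 47.6% ± 1.56 of Cd79a barcodes. The log2 fold change of Cr2-positive stroma against Cd79a barcodes was 0.66 (SE 0.15, adjusted p = 0.00121) and 0.53 with RLE size factors.

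Other stroma also differed from Cd79a barcodes, in 5 of 6 members. Cd200, Cd274, Pdcd1lg2 and Cd40 were lower in other stroma, where 32.7% of all genes tested were higher and 29.7% lower. Cd200 stood at -3.55 (edgeR adjusted p = 1.60e-11) and Cd274 at -3.82 (adjusted p = 1.01e-10). Cd47 was higher by 0.48 (adjusted p = 0.00816), a call lost without 2-IC replicate 1 (0.46, adjusted p = 0.0784), without 2-IC replicate 2 (0.26, adjusted p = 0.208) and without the library block (0.46, adjusted p = 0.143). Cd80 did not pass the test (0.10, adjusted p = 0.878). Pdcd1lg2 and Cd40 were tested here, too, only through their levels in Cd79a barcodes.

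Stromal barcodes that also held B cell RNA carried more of 4 members. In Cd79a barcodes rich in matrix RNA, Cd200, Cd274, Pdcd1lg2 and Cd40 were higher than in other stroma, against 8.02% of all genes tested, and the 14 B cell markers summed to 6698 to 14992 CPM. Cd274 had 23.7, 10.5 and 5.49 CPM there, Cd40 9.26, 5.83 and 13.7 CPM and Pdcd1lg2 5.21, 1.75 and 5.49 CPM, each below the same library of Cd79a barcodes. The log2 fold change against other stroma was 1.72 for Cd200 (edgeR adjusted p = 2.57e-05) and 0.93 with a matrix limit of 1% (adjusted p = 0.0740). It was 2.07 for Cd274 (adjusted p = 3.02e-05) but 1.44 without 2-IC replicate 1 (adjusted p = 0.162), and the adjusted p of Pdcd1lg2 rose from 8.34e-04 to 0.0794 without that library. Cd80 and Cd47 did not pass the test. Because this class is gated on a Cd79a UMI and other stroma on none, a rise in genes carried by B cell RNA is no finding. Pdcd1lg2 and Cd40 entered this contrast, too, only through their levels in Cd79a barcodes.

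Within Cr2-positive stroma Cd200 was uneven. Of the 230 barcodes, 36 held 1 Cd200 UMI, 19 held 2 and 67 held 3 or more, up to 17, and the 5 highest barcodes carried 15.9% of its UMIs. Barcodes with the Fc receptor genes Fcgr2b or Fcer2a had 505, 278 and 549 CPM of Cd200, against 97.9, 99.3 and 239 CPM where neither was found. Both genes were also found in Cd79a barcodes, Fcgr2b at 78.8 CPM on average and Fcer2a at 358 CPM. Cr2-positive stroma averaged 218 and 198 CPM of them. Barcodes with the addressin gene Madcam1 had 536, 292 and 518 CPM, against 143, 106 and 245 CPM without it. Those with 2 or more Cr2 UMIs had 459, 224 and 526 CPM, against 57.5, 36.8 and 150 CPM with 1. In each split Cd200 was higher on the side with the gene detected, or with more Cr2 UMIs, in all 3 libraries. These are descriptions of cells split by a detected gene, for which no test was made. The study had already reported Fcgr2b, Fcer2a and Cd200 in only part of an FDC cluster of these libraries, and evenly in another FDC cluster.

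Barcodes with under 1% of UMIs from the nuclear RNA Malat1 (35, 10 and 18 of the Cr2-positive barcodes) had 490, 590 and 709 CPM of Cd200, and the remainder 284, 118 and 394 CPM. At equal depth the shares were 61.6% ± 3.49 and 28.4% ± 13.3. The fit on these split sums, over 3217 genes of which 6.31% were called, gave 1.11 (SE 0.33, unadjusted p = 0.00986, edgeR adjusted p = 0.0756), short of the threshold. It passed with RLE size factors (adjusted p = 0.0492), with no filter on low counts (0.0202) and without 2-IC replicate 1 (0.0386). Cd47 did not pass (-0.40, adjusted p = 0.317), and the 4 other members had too few counts for this fit. Barcodes with little Malat1 were shallower, at median depths of 3207 to 5774 UMIs in the libraries against 5792 to 13706 UMIs. They also had a lower matrix share, 0.192%, 0.128% and 0.0602% against 0.503%, 0.535% and 0.251%. The part of depth, matrix RNA or nuclear RNA content in the result was not tested.

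**Figure D3:**
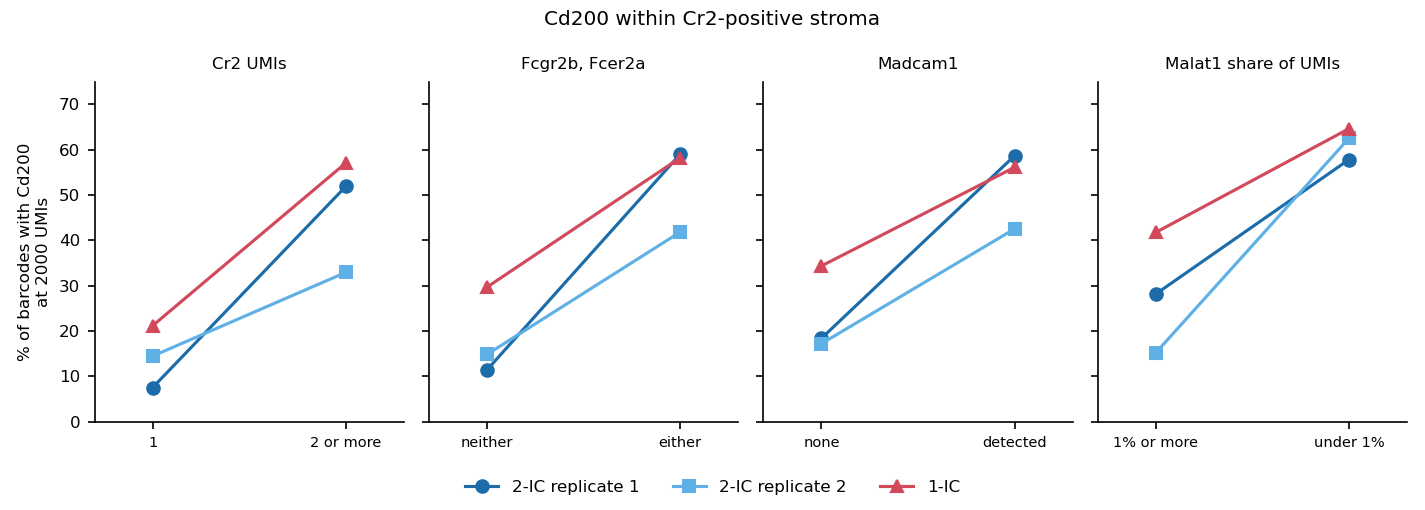
Share of Cr2-positive stromal barcodes with Cd200 at 2000 UMIs (vertical axis, %), split by Cr2 UMIs, by Fcgr2b or Fcer2a, by Madcam1 and by the Malat1 share of UMIs. Lines join the 2 sides of a split within a library, and all 12 lines rise to the right, for Malat1 from 15.2% to 62.5% in 2-IC replicate 2.

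Other stroma was split by marker genes as well. The 33 barcodes with both Madcam1 and Tnfsf11 had 57.5, 9.94 and 40.5 CPM of Cd200, from 8, 2 and 2 UMIs, and those with Tnfsf11 but no Madcam1 had 10.1, 4.79 and 13.1 CPM. The same 33 barcodes had 28.8, 14.9 and 40.5 CPM of Cd80, against 8.87, 2.61 and 11.4 CPM, a ratio over all libraries of 3.56 (1.5 to 7.55). Barcodes with Fmod and Ccl21a had 16.2, 5.0 and 22.3 CPM of Cd200 and those with Inmt 9.09, 5.21 and 8.58 CPM. All of these Cd200 values lay below the Cr2-positive stroma of the same library. Cd80 in the 33 barcodes rested on 9 UMIs. It was above Cr2-positive stroma (9.46, 33.6 and 31.1 CPM) in 2-IC replicate 1 and 1-IC, and below it in 2-IC replicate 2.

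PD-L1 is a known target of interferon, so other stroma was also split by interferon genes (at least 4 of 10 detected). Cd274 had 9.97, 4.51 and 6.02 CPM in interferon-high barcodes, from 7, 5 and 2 UMIs, and 4.09, 2.98 and 2.44 CPM in the remainder, and was too low to enter the fit. Interferon-high was the higher side in 3 of 3 libraries, with ranges that did not overlap, but over all libraries the ratio was 1.84 with a counting interval from 0.930 to 3.44, which includes equal levels. Interferon-high barcodes were deeper, at median depths of 7752, 18667 and 9356 UMIs against 4595.5, 14816 and 6335.5 UMIs. At equal depth 1.58% ± 0.868 of them held Cd274, against 0.704% ± 0.0543 of the remainder. The part of depth in the difference was not tested. Cd47 had 641, 603 and 599 CPM against 526, 542 and 515 CPM, a log2 difference of 0.23 that did not pass (unadjusted p = 0.0346, edgeR adjusted p = 0.498, with 1.23% of 8922 genes called). Cd200 did not pass either (0.36, adjusted p = 0.848).

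The Cd79a barcodes also varied in their ligands. Those that held Cr2, which mature B cells also carry, had 176, 116 and 127 CPM of Cd200, against 68.5, 33.7 and 97.9 CPM without Cr2. Those with a UMI of the stromal chemokine gene Cxcl13 had 119, 93.7 and 149 CPM of Cd200, against 62.3, 77.2 and 84.7 CPM without. Both splits gave the same direction in 3 of 3 libraries. Cd274 went the other way in 3 of 3 libraries, by little in 2-IC replicate 1, at 49.2, 45.8 and 14.5 CPM with Cxcl13 and 52.4, 74.7 and 36.9 CPM without, and Cd40 was lower with Cxcl13 in 2 of 3 libraries. Where neither of the myeloid genes Tyrobp and Lyz2 was found, Cd79a barcodes had 50.4, 72.2 and 25.3 CPM of Cd274 and 14, 19.9 and 26.8 CPM of Pdcd1lg2. The part of myeloid cells in which neither gene was caught was not tested.

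**Figure D4:**
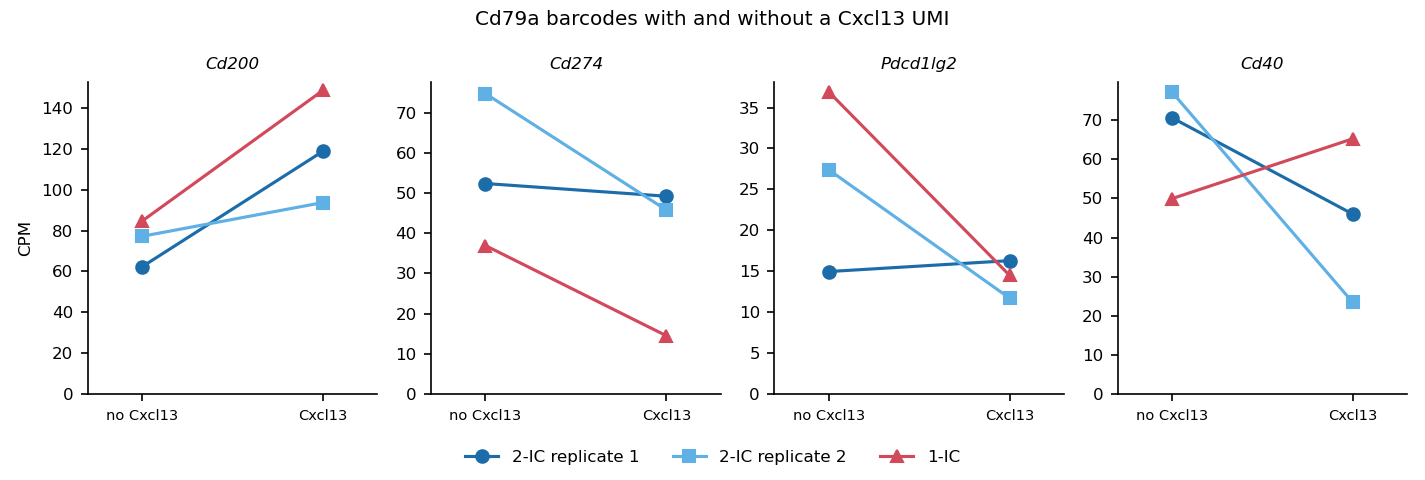
Level in CPM (vertical axes, linear) of 4 genes in Cd79a barcodes without and with a Cxcl13 UMI, 1 line per library. Cd200 rises to the right in all 3 libraries, from 62.3 to 119 CPM in 2-IC replicate 1, Cd274 falls in all 3, and Pdcd1lg2 and Cd40 each fall in 2 of 3.

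Leaving Cd47 aside, 106 Cr2-positive barcodes held UMIs of 1 member, 21 of 2 and 5 of 3, without thinning. At least 2 members were found in 11.3% of Cr2-positive stroma, 0.695% of other stroma and 19.2% of Cd79a barcodes.

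Genes of the same pathways were taken from lists. Of 20 genes of CD40 and NF-kB signalling, 7 were higher and 0 lower in Cr2-positive than in other stroma, with a median log2 fold change of 0.42 against 0.01 for all genes, of which 9.53% were higher and 7.33% lower. Traf1, an adaptor of TNF receptors and a known NF-kB target, had 114 ± 25.7 CPM against 19.2 ± 4.53 CPM (log2 fold change 2.56, SE 0.25, edgeR adjusted p = 3.07e-07). Tnfaip3, which encodes the inhibitor A20, stood at 1.14 (adjusted p = 6.45e-05) and Relb, a subunit of the alternative pathway, at 0.95 (adjusted p = 1.47e-04). Nfkbie, Nfkb2, Tank and Birc2 were higher by 0.76, 0.57, 0.54 and 0.51, although the library values of the stromal classes overlapped in Nfkbie, Nfkb2 and Birc2. Nfkbia, the most abundant of the list, did not pass the test (-0.01, adjusted p = 0.981). Against Cd79a barcodes 8 were higher and 3 lower, beside 31.5% and 21.9% of all genes tested. Traf1, at 66.1 CPM in Cd79a barcodes, did not pass this contrast (0.44, edgeR adjusted p = 0.119), and neither did Tank (0.39, adjusted p = 0.074).

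Of 20 genes from the interferon receptors to PD-L1, 2 were higher and 1 lower in Cr2-positive than in other stroma, with a median of -0.08. These counts lie near the shares of all genes tested, 9.53% higher and 7.33% lower. Socs1, a brake on cytokine signalling, was higher by 0.94 (edgeR adjusted p = 0.00492) and the receptor chain Ifngr2 by 0.72 (adjusted p = 0.00952). The classes overlapped in Socs1, at 28.8 to 128 CPM in Cr2-positive and 27.4 to 42.3 CPM in other stroma. The interferon-induced GTPase Gbp2 was lower at 15 ± 7.62 CPM against 44.2 ± 9.80 CPM (log2 fold change -1.30, adjusted p = 0.0146). Ifngr1, Irf2 and Jak1, the most abundant of the list, stood at 0.40, -0.07 and -0.01 and did not pass.

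Of 24 other ligands, 15 were tested and 2 were higher and 3 lower in Cr2-positive than in other stroma, with a median of 0.13, beside 9.53% and 7.33% of all genes tested. Nectin3, an adhesion molecule of the nectin family, had 78.0 ± 10.2 CPM against 20.8 ± 4.10 CPM (1.91, SE 0.19, edgeR adjusted p = 4.26e-07). Cd86, the second ligand of CD28, was called higher from 5 UMIs against 4 UMIs, beside 496 UMIs in Cd79a barcodes, through which alone it passed the filter on low counts. The lower genes were the ICOS ligand Icosl (-1.17, adjusted p = 0.0267), Lgals9 (-0.84, adjusted p = 0.0199) and the 4-1BB ligand Tnfsf9 (-0.91, adjusted p = 0.0303). The classes overlapped in Tnfsf9, at 16.8 to 31.9 CPM in Cr2-positive and 27.3 to 57.7 CPM in other stroma. H2-Q7, H2-T23 and Cd24a, the most abundant, did not pass at 0.13, -0.38 and -0.59.

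Of 20 receptors, 7 were tested, with 2 higher and 2 lower in Cr2-positive than in other stroma, beside 9.53% and 7.33% of all genes tested. Sirpa, the receptor of CD47, had 85.4 ± 18.1 CPM in Cr2-positive stroma, 21.1 ± 5.80 CPM in other stroma and 24.6 ± 3.89 CPM in Cd79a barcodes (1.96 against other stroma, SE 0.23, edgeR adjusted p = 2.37e-06). It is also expressed by myeloid cells, whose summed markers were higher in Cr2-positive than in other stroma. The part of myeloid RNA in the Sirpa level was not tested. Tnfrsf9, which encodes the receptor 4-1BB, had 41 UMIs in Cr2-positive stroma, 1 UMI in other stroma and 30 UMIs in Cd79a barcodes (adjusted p = 9.48e-08 between the stromal classes). It passed the filter on low counts only through Cr2-positive stroma, so its call is no independent support. Lag3 (-1.98, adjusted p = 0.00398) and the CD47-binding matrix protein gene Thbs1 (-1.52, adjusted p = 0.00683) were lower, although the classes overlapped in Thbs1, at 18.7 to 170 CPM in Cr2-positive and 96.1 to 850 CPM in other stroma. Btla did not pass (1.66, adjusted p = 0.335).

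The genes whose pattern was most like that of Cd200, by Pearson correlation of log2(CPM + 10) over the 12 class sums among 4988 genes, were Zbtb18 (0.980), Il4i1 (0.980), Serpinb1a (0.979), Spint2 (0.975) and Fabp5 (0.971). Il4i1 averaged 430 CPM in Cr2-positive stroma, 24.8 CPM in other stroma and 176 CPM in Cd79a barcodes. Cd274 was closest to Cd86 (0.979), Gng2 (0.977), AI662270 (0.971), Rgs2 (0.970) and Bin2 (0.961). Cd40 was closest to Plekho1 (0.990), Smagp (0.988), Gimap7 (0.987), Jakmip1 (0.982) and Spi1 (0.982). The 12 sums share 3 libraries and differ in depth, and these values are descriptions.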

How the data were processed

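Single-cell 3' libraries (Chromium v3 kit) of sorted lymph node stroma were measured, 2 of the 2-IC group and 1 of the 1-IC group, grouped by their titles because the short descriptions of the 2-IC libraries conflict. The authors ran Cell Ranger (5.0.0 per the file headers, an earlier version in the study's methods)  on GRCm38 and deposited raw UMI counts of each gene in each barcode, not normalized.

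Barcodes with at least 200 genes and at most 10% mitochondrial UMIs were kept (4513 of 5486), as in the study's methods. The 8 matrix genes were Col1a1, Col1a2, Col3a1, Col6a1, Col6a2, Dcn, Bgn and Sparc. No doublets were removed, and Scrublet (scanpy 1.11.5), tried as an alternative, marked 1, 4 and 12 barcodes. CPM are UMIs of a class and library scaled to 1000000 UMIs of all genes in it. Shares at 2000 UMIs are exact hypergeometric expectations. Counting intervals are exact 95% Poisson or conditional binomial intervals, and a count of 0 was taken to allow 3 counts.

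Cells are not replicates, so counts were summed per class and library (12 sums) and tested with edgeR 4.0.16 (R 4.3.3; TMM, filterByExpr, quasi-likelihood test, Benjamini-Hochberg over all genes tested), with a term for the library, since its classes come from 1 suspension. P-values set a difference between classes against the spread left among the class sums of a fit. That spread is estimated over all classes in the fit, with information shared between genes. The sums come from 3 libraries of pooled animals, 1 of them from another group. Differences in level between libraries are taken up by the library term, and the spread between single animals is not measured. The SE of a fold change was worked back from the test, as its absolute log2 value divided by the square root of the F statistic. Alternatives were RLE size factors, no filter, DESeq2 1.42.0, no block, each library left out, thinning to 2000 UMIs and other gates. The fits were also run on simulated counts with a fixed spread and no differences between libraries other than depth. Such counts cannot show how the fits perform on the spread of these data.

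The members and gene lists were chosen with earlier results of these data known. The text names the members, the 3 most abundant genes of each list, every list gene called between Cr2-positive and other stroma, gate genes and the 5 genes most like Cd200, Cd274 and Cd40. Leaving out shared barcodes, requiring 3 Cd79a UMIs, and the splits by Cxcl13 and by Tyrobp or Lyz2 were added after the data were seen. One further split is not reported here. Promoters came from RefSeq, which matched 5 of 6 members, with no entry for Cd40 used here. The windows of Cd274 and Cd47 overlap annotated exons and are not shown.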

Additional observations from a re-analysis of the deposited data

How the results depend on the processing

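Of the fold changes and adjusted p-values of members under the alternatives, 407 kept their direction and side of the threshold, 7 lost significance, 5 gained it and 8 changed sign without passing the threshold in either fit. Cd80 between other stroma and Cd79a barcodes (0.10) ran from -0.10 without the 1-IC library to 0.32 without 2-IC replicate 1 and was at -0.15 with Tyrobp or Lyz2 barcodes left out and -0.26 with a matrix limit of 1%. Cd47 in Cd79a barcodes rich in matrix RNA (0.03) was at -0.026 with no filter and with thinning, -0.0065 with 3 Cd79a UMIs, -0.0097 with classes assigned at 2000 UMIs and -0.041 with 3 contaminant genes. For Pdcd1lg2 between the stromal classes, with 0 and 3 UMIs, only the adjusted p is counted, since a fold fitted to a class at 0 UMIs sets no bound. That fold was -2.35 in the fit reported here, 0.82 with DESeq2 and 2.22 with classes assigned at 2000 UMIs. None of these passed the test, and these changes of sign are not among the 8. The exceptions in the comparisons of Cr2-positive stroma were Cd40 against other stroma (2.40 with classes assigned at 2000 UMIs and 2.51 with 3 contaminant genes, called in both, against 1.82 as reported and 0.93 to 2.70 over 17 alternatives) and Cd80, whose fold change ran from 1.42 to 2.64 with each library left out. The cause was not tested. The further changes of call stand beside their results.

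Thinning to 2000 UMIs, which leaves fewer genes to test (5455 of 11107), gave 864 genes called between Cr2-positive and other stroma in place of 1872, 2734 in place of 5936 between Cr2-positive stroma and Cd79a barcodes, 3425 in place of 6933 between other stroma and Cd79a barcodes, 403 in place of 989 for Cd79a barcodes rich in matrix RNA and 43 in place of 110 for the interferon split. Without the replicate block the counts were 924 for Cr2-positive against other stroma, 598 for Cd79a barcodes rich in matrix RNA, 128 in place of 203 for the Malat1 split and 30 for the interferon split. With no block Cd200 was at 5.0 and 1.46 against other stroma and Cd79a barcodes and stayed called. RLE size factors gave 417, no filter 563 and a Malat1 limit of 2% 115 genes for the Malat1 split, and no filter gave 194 for the interferon split. No filter also turned the balance between Cr2-positive and other stroma, from 1058 genes higher and 814 lower to 1035 and 1296.

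With each library left out in turn, which leaves fewer samples, the counts ran from 1063 to 1516 (Cr2-positive against other stroma), 3902 to 5797 (against Cd79a barcodes), 505 to 910 (Cd79a barcodes rich in matrix RNA), 57 to 447 (Malat1 split) and 83 to 171 (interferon split). The lowest of the first 3 ranges were without 2-IC replicate 1. For the Malat1 split, 447 genes were called without 2-IC replicate 1, 112 without 2-IC replicate 2 and 57 without the 1-IC library, and for the interferon split 171 without the 1-IC library.

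Shares move with depth by construction, and each depth leaves out the barcodes below it, so the shares are over unlike sets of barcodes. In Cr2-positive stroma Cd200 was found in 23.9% of barcodes at 1000 UMIs, 49.5% at 4000 UMIs and 54.2% without thinning, Cd47 in 41.1%, 85.5% and 82.9%, Cd80 in 10.4% at 4000 UMIs and 17.4% without thinning, Cd274 in 2.65% and 5.13%, and Cd40 in 1.13% without thinning. Depth limits Cd274, Cd40 and Pdcd1lg2 in Cr2-positive stroma, where 11, 4 and 0 UMIs were counted among 1583501.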

Other observations

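The 954 barcodes outside the classes include barcodes with a contaminant gene other than Cd79a and barcodes with little matrix RNA and no Cr2. Cd200 measured 64.4, 23.9 and 81.6 CPM there, Cd274 24.8, 18.7 and 17.4 CPM, Pdcd1lg2 4.09, 3.07 and 6.69 CPM and Cd40 8.43, 7.67 and 9.37 CPM. Each of these lay between the values of other stroma and of Cd79a barcodes in the same library. Cd80 had 7.15, 4.29 and 6.69 CPM and Cd47 583, 525 and 538 CPM.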
